A study of Mus musculus with 51 samples.

Results

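Prox1, Dsp, C1ql3, Calb1 and Slc4a4 are 5 genes whose transcripts mark the granule cells of the dentate gyrus (DG). They were chosen by name, with their higher signal in the DG in view, so that their differences between subfields are given here as a description without a test. Every probe set that the annotation of the array gives to 1 of the 5 symbols alone was taken, which gave 13 of the 22626 probe sets tested, for 5 of the 11807 genes that have such a probe set: 1 for Prox1, 3 for Dsp, 3 for C1ql3, 2 for Calb1 and 4 for Slc4a4. Probe set 1453578_at, which is assigned to both C1ql3 and Pter, was not counted among them.

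The signals come from 51 Affymetrix HT-MG-430A arrays of 17 mice, with 1 array for the granular layer of the DG and 1 each for the pyramidal layers of CA1 and CA3, all collected by laser microdissection of frozen sections. The mice were littermates, labelled female and 4.5 months old. The 6 rTg4510 mice carried a responder transgene for human tau with the P301L mutation (FVB/N parent) together with the CaMKIIα-driven tetracycline transactivator that switches it on in forebrain excitatory neurons (from a parent of another strain). The 5 tTA mice carried the transactivator alone, and the 6 DN (double negative) mice carried neither transgene. Each replicate is a different mouse, and all values are log2 signals unless stated otherwise. Because a microdissected layer is a bulk sample, fewer cells of a type and less RNA per cell cannot be told apart in any of the values below.

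Granule cells receive the input of the entorhinal cortex and send mossy fibres to CA3. The homeodomain transcription factor Prox1 sets and keeps granule cell fate during development and in the adult mouse. Desmoplakin, the product of Dsp, tethers intermediate filaments to desmosomes, junctions best known from skin and heart. C1ql3 is a secreted protein of the C1q family that acts at synapses, among them mossy fibre synapses, and calbindin, the product of Calb1, buffers calcium. Slc4a4 encodes an electrogenic sodium bicarbonate cotransporter, which astrocytes also use.

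Promoter windows of 4 of the 5 genes were found in RefSeq (build GRCm38.p6), each spanning 250 bases before to 50 bases after an annotated start. They are shown because the 5 genes shared a subfield pattern, and capitals mark the E-box CANNTG, the motif bound by basic helix-loop-helix factors such as those of the Neurod family, which reads the same on both strands. Prox1 lies on the minus strand, with its upstream start shown (chr1:190170778-190171077), Dsp on the plus strand (chr13:38151044-38151343), C1ql3 on the minus strand (chr2:13010815-13011114) and Slc4a4 on the plus strand, with an upstream start (chr5:88887010-88887309) and a downstream one (chr5:89027716-89028015).
Prox1, upstream start: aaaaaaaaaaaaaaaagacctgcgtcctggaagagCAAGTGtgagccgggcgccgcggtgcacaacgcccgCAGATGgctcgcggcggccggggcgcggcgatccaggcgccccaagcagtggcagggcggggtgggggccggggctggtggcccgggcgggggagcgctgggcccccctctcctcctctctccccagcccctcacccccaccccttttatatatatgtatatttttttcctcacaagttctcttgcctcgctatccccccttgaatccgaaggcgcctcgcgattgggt
Dsp: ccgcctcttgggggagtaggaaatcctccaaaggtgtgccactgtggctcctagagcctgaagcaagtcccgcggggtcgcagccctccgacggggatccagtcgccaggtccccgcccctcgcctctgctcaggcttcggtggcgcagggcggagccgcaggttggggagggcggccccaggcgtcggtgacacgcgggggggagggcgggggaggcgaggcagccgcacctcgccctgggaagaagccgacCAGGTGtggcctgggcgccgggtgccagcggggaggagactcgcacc
C1ql3: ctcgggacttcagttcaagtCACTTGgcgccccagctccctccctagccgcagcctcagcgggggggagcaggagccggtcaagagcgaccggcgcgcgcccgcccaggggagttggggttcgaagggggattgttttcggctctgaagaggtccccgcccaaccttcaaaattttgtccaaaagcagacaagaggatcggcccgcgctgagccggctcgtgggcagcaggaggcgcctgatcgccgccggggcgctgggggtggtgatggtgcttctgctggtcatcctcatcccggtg
Slc4a4, upstream start: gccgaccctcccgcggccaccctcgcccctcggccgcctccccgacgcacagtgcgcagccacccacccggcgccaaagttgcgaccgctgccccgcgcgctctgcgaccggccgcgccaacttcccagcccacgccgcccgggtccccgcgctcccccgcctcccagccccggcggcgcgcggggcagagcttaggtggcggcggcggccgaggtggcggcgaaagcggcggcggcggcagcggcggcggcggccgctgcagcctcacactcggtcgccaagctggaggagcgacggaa
Slc4a4, downstream start: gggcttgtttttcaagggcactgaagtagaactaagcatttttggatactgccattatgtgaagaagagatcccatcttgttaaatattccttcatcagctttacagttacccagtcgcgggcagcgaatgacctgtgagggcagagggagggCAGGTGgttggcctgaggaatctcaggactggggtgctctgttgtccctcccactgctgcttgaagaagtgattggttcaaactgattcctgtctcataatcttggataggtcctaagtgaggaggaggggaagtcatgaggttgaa

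RefSeq also gives Prox1 a downstream start (chr1:190169466-190169765, minus strand), whose window is not printed because it held 0 E-boxes. The upstream Prox1 window held 2 E-boxes, those of Dsp, C1ql3 and the downstream start of Slc4a4 held 1 each, and the upstream start of Slc4a4 held 0. An E-box stood in 72.3% of all 32851 windows of the same length, so that its presence did not set these genes apart. The base composition differed more: the windows of Dsp, C1ql3 and the upstream starts of Prox1 and Slc4a4 were 73.0%, 66.3%, 64.3% and 80.0% GC, and those of the downstream starts of Prox1 and Slc4a4 57.3% and 48.3% GC, against a median of 52.7% over all windows. The GC box GGGCGG occurred 4 times in the Dsp window, 2 times each in those of C1ql3 and the upstream start of Prox1, 1 time each at the downstream start of Prox1 and the upstream start of Slc4a4, and 0 times at the downstream start of Slc4a4, counting both strands. It stood in 35.7% of all windows. These matches describe the letters of the windows and were not tested for binding.

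The array medians ranged between 2.91 and 3.12, and the correlation of an array with the average of its subfield, computed without it, was 0.925 to 0.987 across probe sets. Prnp, whose signal separated the rTg4510 mice from the other genotypes, went against the label in 5 arrays. In the remaining DG arrays it lay between 9.73 and 10.3 in rTg4510 mice, between 7.82 and 8.23 in tTA mice and between 7.46 and 8.02 in DN mice. The 5 were the DG array labelled rTg4510 mouse 3 (7.34), the DG arrays labelled DN mouse 4 (9.98) and DN mouse 5 (9.93), and, of DN mouse 4, also the array of CA1 (10.4) and that of CA3 (9.65). All 5 were kept under their labels, and each genotype result below that changed without them is given both ways.

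A second group of arrays went against its subfield in some markers but not in all. Wfs1, a marker of CA1 pyramidal cells, was above every CA3 array (highest 8.20) in 9 of the 17 CA1 arrays, at 8.46 to 10.5, but reached only 2.48 to 7.11 in the other 8. In those 8 arrays the CA3 markers Prkcd (3.72 to 6.53) and Bok (5.25 to 7.80) lay near or within their CA3 ranges (4.67 to 7.40 and 6.57 to 8.09). In the 9 arrays Prkcd was 1.09 to 2.32 and Bok 2.89 to 5.18. Pou3f1, another CA1 marker, went with Wfs1, at 1.58 to 2.96 in the 8 arrays and 5.25 to 8.38 in the 9. The CA1 marker Crym did not. Crym was 4.6 to 8.32 in the 8 arrays (median 7.23) and 6.87 to 8.465 in the 9, against 1.28 to 4.75 in CA3. The markers therefore did not agree on the subfield of the 8 arrays, and which layer these hold was not tested. Of the 8 arrays, 3 were labelled rTg4510, 2 tTA and 3 DN, so that each genotype held arrays of both kinds. For the 5 genes, differences between DG and CA1 are therefore also given without them, an alternative chosen after seeing the data. Those of other genes rest on all CA1 arrays.

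By their brightest probe sets, all 5 genes had their highest mean signals in the DG. In 4 probe sets, Prox1 1421336_at, Dsp 1435493_at, Dsp 1435494_s_at and Slc4a4 1421225_a_at, every DG array was higher than any of the 34 CA arrays. This held for 17 probe sets in all (0.0751%), the others being Kcnc4, Ankrd6, Cbfb, Tiam1, Rfx3, Stxbp6, Marcksl1, Apcdd1, Hpcal1, Slc39a6, Xpr1, Marcks and 1 probe set without a symbol. Separately, every DG array was above every CA1 array for 0.137% and above every CA3 array for 0.301% of probe sets. Since the genes were chosen for this pattern, these shares are only a description.

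**Figure D1:**
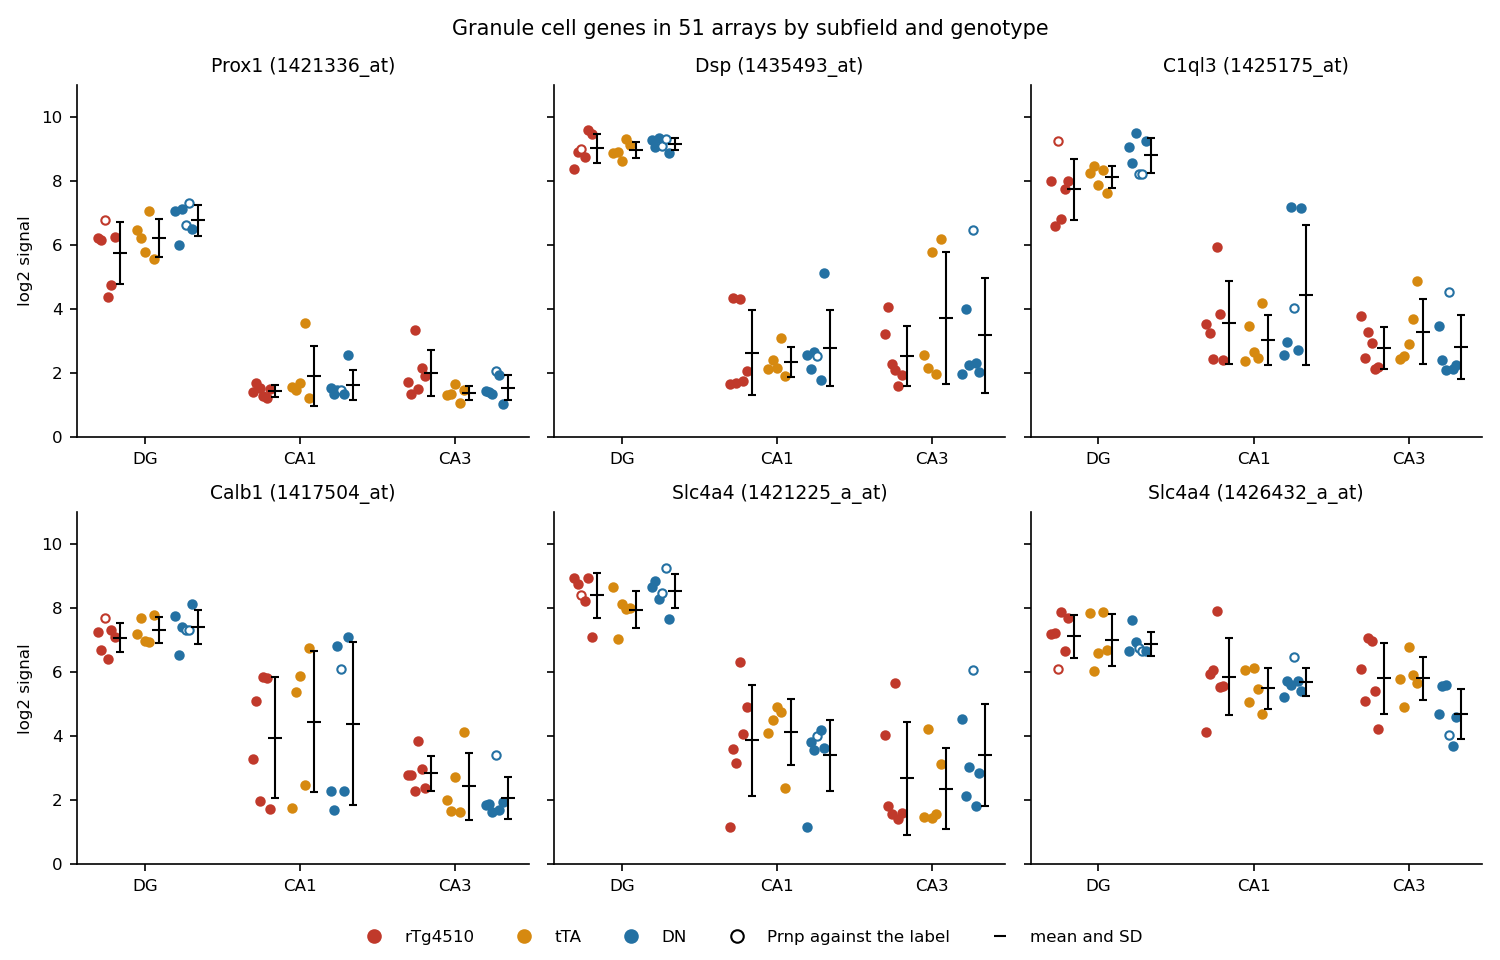
Log2 signal (vertical axis) of the brightest probe set of each gene, and of 1421225_a_at of Slc4a4, in each of the 51 arrays, by subfield and genotype, with mean and SD bars beside the points. Open points are the 5 arrays whose Prnp went against the label. Prox1, Dsp and Slc4a4 1421225_a_at lie above all CA arrays in the DG, while Calb1 splits into high and low arrays within CA1.

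Prox1 (1421336_at) had a signal of 4.36 to 7.29 in the 17 DG arrays, with a median of 6.24. It was 1.22 to 3.54 in the CA1 arrays and 1.04 to 3.33 in the CA3 arrays, ranges that did not reach the DG. Within mice the DG exceeded CA1 by 4.61 (SE 0.19, 24.4-fold on the linear scale) and CA3 by 4.6 (SE 0.24, 24.2-fold), in 17 of 17 mice each, as held for 0.734% and 1.08% of all probe sets. Among all probe sets these differences ranked 3rd and 9th. CA1 and CA3 themselves averaged 1.63 ± 0.58 and 1.64 ± 0.54 (SD, n = 17), close to the lowest signals on the arrays.

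Dsp showed the largest step of any probe set between the DG and either CA field. Its brightest probe set, 1435493_at, averaged 9.04 ± 0.32 in the DG, 2.60 ± 1.03 in CA1 and 3.10 ± 1.60 in CA3 (SD, n = 17), with DG arrays between 8.37 and 9.58. The mean difference within mice was 6.44 (SE 0.28, 86.9-fold) against CA1 and 5.94 (SE 0.42, 61.3-fold) against CA3. The DG SD was the smallest among the brightest probe sets of the 5 genes, while CA3 values were spread, with 6.47 in the array labelled DN mouse 4 and 5.76 and 6.17 in those of tTA mice 3 and 5, against 1.60 to 4.06 in the other CA3 arrays. Prox1 was 2.07, 1.66 and 1.46 in these 3 CA3 arrays, within its range in the others. The dimmer 1435494_s_at gave differences of 5.67 and 5.55, which ranked 2nd and 3rd of all probe sets, and 1427610_at gave 1.58 and 1.44 at a DG mean of 3.02 ± 0.90.

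C1ql3 (1425175_at) ranged between 6.58 and 9.49 in the DG, between 2.36 and 7.19 in CA1 and between 2.10 and 4.87 in CA3. Its DG signal exceeded CA1 by 4.50 (SE 0.40) and CA3 by 5.27 (SE 0.30, 38.6-fold) within mice. The DG did not overlap with CA3 but did with CA1, because the CA1 arrays of DN mice 3 and 6 reached 7.19 and 7.15. The next highest CA1 array, that of rTg4510 mouse 4, was 5.92, below every DG array. In the same CA1 arrays of DN mice 3 and 6, Prox1 was 1.48 and 2.55 and Dsp 2.65 and 5.10, far below any DG array. The other C1ql3 probe sets, 1451620_at and 1425176_at, exceeded CA1 by 4.18 and 2.69 and CA3 by 4.82 and 3.05, and 1425175_at and 1451620_at followed each other over the 51 arrays (r = 0.977).

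Calb1, known in mice from granule cells and from part of the CA1 pyramidal cells, was strong in the DG and divided the CA1 arrays. Probe set 1417504_at ranged between 6.42 and 8.12 in the DG, between 1.69 and 7.11 in CA1 and between 1.63 and 4.13 in CA3. In the 9 CA1 arrays with high Wfs1 it was 5.09 to 7.11, and in the 8 others 1.69 to 3.30, with no overlap. The DG exceeded CA1 by 3.01 (SE 0.49, 8.04-fold) over all 17 mice, but by 1.22 (SE 0.18, 2.32-fold) in the 9 mice whose CA1 array had high Wfs1. Against CA3 the difference was 4.81 (SE 0.24, 28.0-fold). CA1 exceeded CA3 by 1.80 (SE 0.45) with all CA1 arrays, in 13 of 17 mice. The second probe set, 1448738_at, was dim, at 2.57 ± 0.77 in the DG, and exceeded CA1 and CA3 by 1.15 and 1.21.

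**Figure D2:**
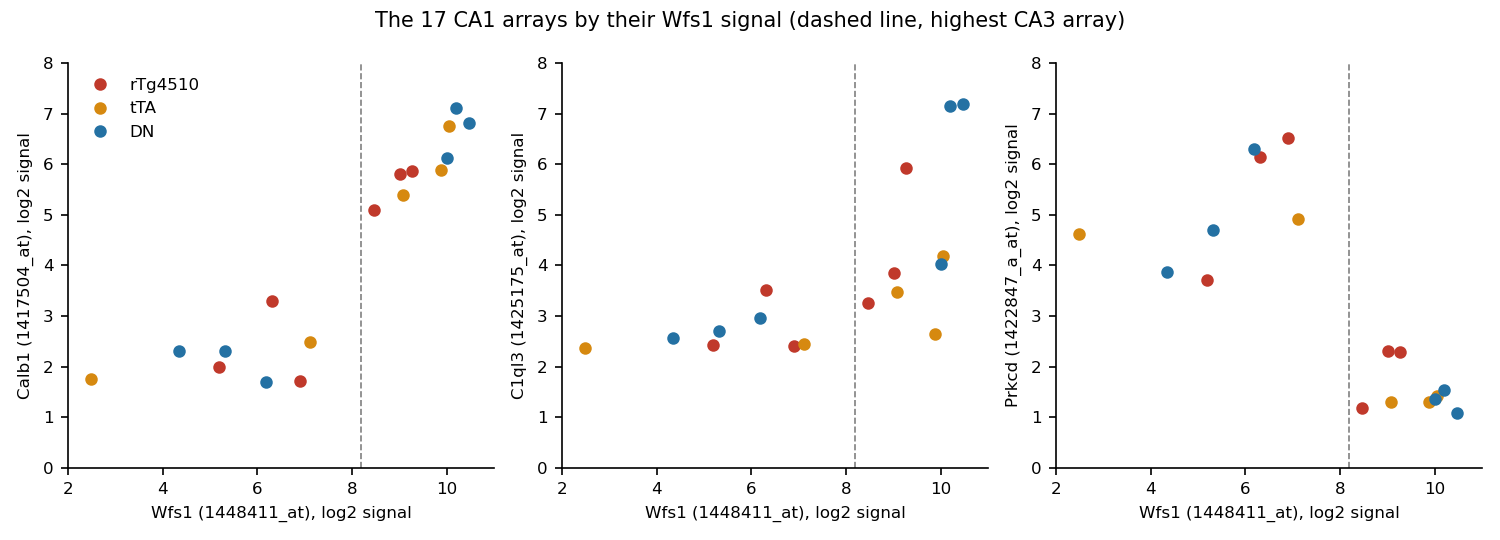
Log2 signals of Calb1, C1ql3 and Prkcd (vertical axes) against that of Wfs1 (horizontal axis) in the 17 CA1 arrays, coloured by genotype, with a dashed line at the highest Wfs1 signal of any CA3 array (8.20). Calb1 is 5.09 to 7.11 right of the line and 1.69 to 3.30 left of it, while Prkcd runs the other way and the 2 highest C1ql3 values belong to DN mice.

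The other genes changed less when the 8 CA1 arrays were left out. The DG then exceeded CA1 by 6.00 (SE 0.47) for Dsp, by 4.33 (SE 0.26) for Prox1, by 4.06 (SE 0.42) for Slc4a4 1421225_a_at and by 3.37 (SE 0.47) for C1ql3, in 9 mice.

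Slc4a4 gave different pictures by probe set. Probe set 1421225_a_at followed the granule cell pattern, at 7.03 to 9.24 in the DG, 1.16 to 6.31 in CA1 and 1.42 to 6.07 in CA3, with differences of 4.53 (SE 0.39, 23.1-fold) and 5.46 (SE 0.41, 44.1-fold). Probe set 1426432_a_at, the brightest over all arrays, averaged 7.0 ± 0.60 in the DG, 5.70 ± 0.80 in CA1 and 5.42 ± 0.99 in CA3, and its DG range of 6.02 to 7.89 overlapped with both CA fields. It exceeded CA1 by 1.31 (SE 0.20, in 16 of 17 mice) and CA3 by 1.58 (SE 0.27, in 15 of 17). Probe set 1452071_at gave 1.43 and 1.52, and 1450169_at, which lay under the array median in every array, differed by 0.00 and −0.04. Within the 17 DG arrays the signals of 1421225_a_at and 1426432_a_at were nearly unrelated (r = 0.08), so they were not averaged. Which transcripts of Slc4a4 each probe set detects was not determined.

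Slc4a4 is also a gene of astrocytes, and a list of 13 other astrocyte genes, Gfap, Aqp4, Slc1a2 and Sox9 among them, averaged 5.54 ± 0.46 in the DG, 5.12 ± 0.44 in CA1 and 5.16 ± 0.36 in CA3 (SD, n = 17). Of these, 10 of 13 were higher in the DG than in both CA fields, and the median difference of the 13 was 0.41 against each. Their part in the Slc4a4 difference between subfields was not tested.

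Ordering the 9 groups of subfield and genotype by mean, the 3 DG groups stood at the top for every probe set but Slc4a4 1450169_at. The gap to the highest CA group was 5.24 for Dsp, 3.82 for Slc4a4 1421225_a_at, 3.76 for Prox1, 3.29 for C1ql3 and 2.63 for Calb1, each more than the larger SD of the neighbouring groups, and 1.02 for Slc4a4 1426432_a_at, which was not. Within the DG the means of DN mice were highest for the other 5 of these 6 probe sets, while rTg4510 mice were highest for Slc4a4 1426432_a_at and, outside these 6, for Dsp 1435494_s_at and Slc4a4 1452071_at and 1450169_at. Among neighbours in the DG, the gap between tTA and DN mice for C1ql3 exceeded the larger SD, and no other did. Within the CA groups neighbours did not differ beyond their spread, except that Slc4a4 1426432_a_at in CA3 of DN mice (4.70) lay 0.79 under the next group.

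The rule that chose the genes names no genotype difference, although earlier results of these data were known, and genotypes were compared with limma, adjusting over all 22626 probe sets. None of the 13 probe sets passed the threshold of 0.05 in any of 12 comparisons, which were the 3 pairs of genotypes in each subfield and in the step between the DG and the mean of the CA fields. Of all probe sets, 0.00442% passed for rTg4510 against tTA mice in CA3 and for rTg4510 against DN mice in CA1, and 0.0% in the others.

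In the DG, Prox1 had signals of 6.20, 6.15, 6.77, 4.36, 4.74 and 6.24 in rTg4510 mice 1 to 6. It had 6.46, 6.21, 5.77, 7.07 and 5.54 in tTA mice 1 to 5, and 7.06, 6.00, 7.10, 6.60, 7.29 and 6.48 in DN mice 1 to 6. Mice 4 and 5 of the rTg4510 group had the lowest Prox1 of all DG arrays, and the 3 genotypes overlapped. The differences were −1.01 for rTg4510 minus DN (SE 0.39, limma adjusted p = 0.967), −0.46 for rTg4510 minus tTA (SE 0.41, adjusted p = 0.920) and −0.55 for tTA minus DN (SE 0.41, adjusted p = 0.944). Without the 5 arrays, Prox1 differed by −1.12 between rTg4510 and DN mice (SE 0.44, adjusted p = 0.657). Dsp (1435493_at) in these 2 rTg4510 arrays was 8.72 and 9.58, the latter the highest of the 17 DG arrays, whose lowest was 8.37. The difference between the Gapdh 3′ and 5′ control probe sets, a measure of RNA and amplification quality, was 2.58 and 3.62 there, the second being the highest of the 17 DG arrays, which began at 2.24. Over the 17 DG arrays this measure and Prox1 gave r = −0.20 (permutation p = 0.656 adjusted over 20 relations, Spearman's rho = −0.0074).

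C1ql3 (1425175_at) in the DG was 8.0, 6.58, 9.24, 6.80, 7.74 and 7.99 in rTg4510 mice 1 to 6. It was 8.24, 8.46, 7.87, 8.32 and 7.62 in tTA mice and 9.06, 8.54, 9.49, 8.22, 8.21 and 9.24 in DN mice. The rTg4510 and DN groups overlapped because the array labelled rTg4510 mouse 3 was high. Those labelled DN mice 4 and 5 were the lowest of their group, within the tTA range but above the other rTg4510 arrays. These are the 3 DG arrays whose Prnp went against the label. With all arrays the difference between rTg4510 and DN mice was −1.07 (SE 0.37, limma adjusted p = 0.967), and for 1451620_at it was −1.05 (SE 0.41, adjusted p = 0.967).

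Without the 5 arrays 1 of the 3 C1ql3 probe sets passed the threshold between rTg4510 and DN mice. Probe set 1451620_at was 4.89 to 6.59 in 5 rTg4510 mice and 7.10 to 7.88 in 4 DN mice, a difference of −1.80 (SE 0.29, limma adjusted p = 0.0411). This was 1 of 16 probe sets past the threshold (0.0707%), of which 12 were lower (0.053%). Probe set 1425175_at was 6.58 to 8.0 in rTg4510 mice and 8.54 to 9.49 in DN mice, also without overlap, but its difference of −1.66 (SE 0.32) did not pass (adjusted p = 0.125), and 1425176_at differed by −1.74. The rTg4510 mice lay wholly below the DN mice for 1.38% of all probe sets in these arrays, and for 0.0972% with all arrays.

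The tTA mice, which carry no tau transgene, were also wholly below the 4 remaining DN mice for the same C1ql3 probe sets, at 7.62 to 8.46 against 8.54 to 9.49 for 1425175_at and 6.18 to 7.04 against 7.10 to 7.88 for 1451620_at. This was so for 1.07% of all probe sets, and the C1ql3 differences of −0.98 (SE 0.32) and −0.90 (SE 0.29) did not pass the threshold (limma adjusted p = 0.811 for each), which 0.0575% of all probe sets did. Between rTg4510 and tTA mice the C1ql3 differences were −0.38 (SE 0.39) and −0.58 (SE 0.43) with all arrays, with limma adjusted p of 0.943 and 0.901. They were −0.68 (SE 0.30) and −0.91 (SE 0.28) once the 5 arrays were left out, and did not pass either (adjusted p = 0.809 and 0.665).

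**Figure D3:**
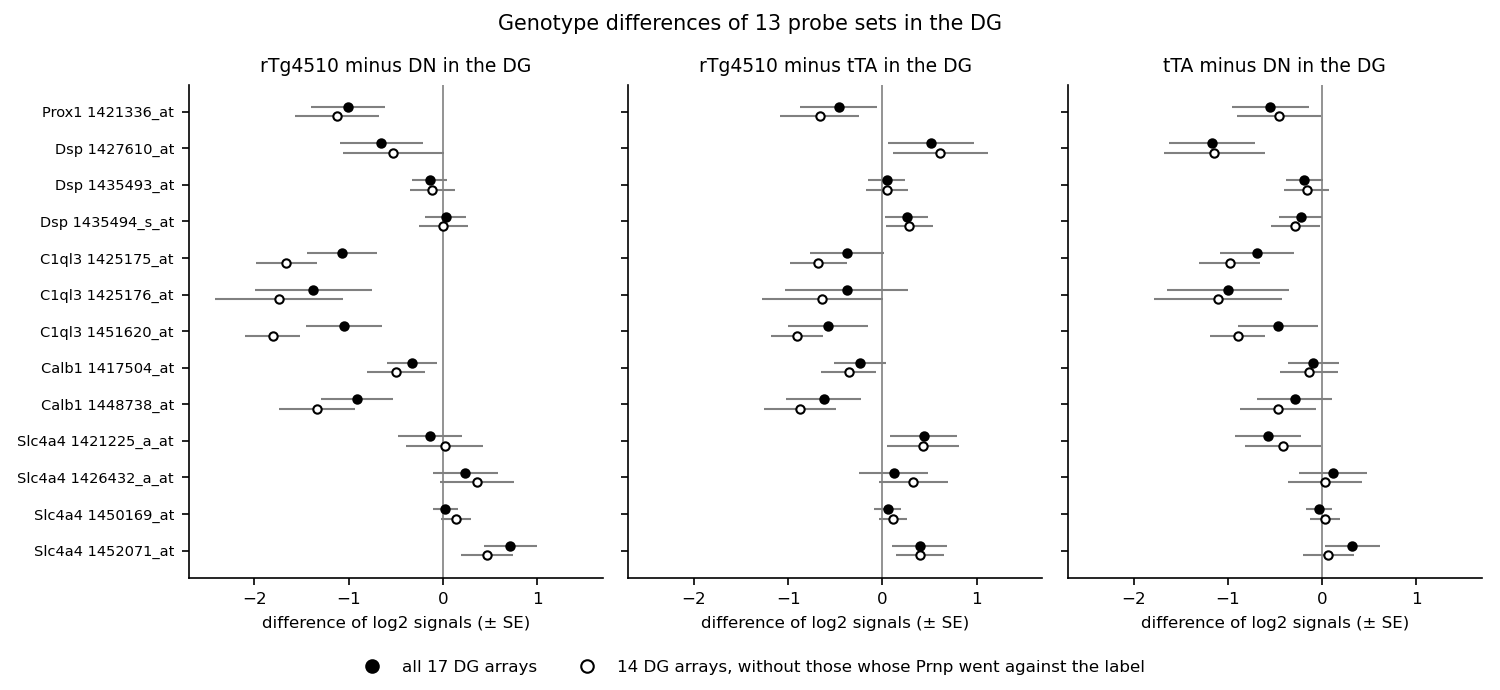
Differences of log2 signals between genotypes in the DG (horizontal axis, ± SE) for the 13 probe sets (rows), with all 17 DG arrays (filled) and with the 14 arrays left once the 3 DG arrays with Prnp against the label were removed (open). The 3 C1ql3 probe sets lie furthest from 0 in the left panel, 1451620_at standing at −1.05 with all arrays and −1.80 without the 3, while the brightest probe sets of Dsp and Slc4a4 lie closer to 0.

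Dsp differed little by genotype in its brightest probe set. Probe set 1435493_at was 8.37 to 9.58 in rTg4510, 8.62 to 9.31 in tTA and 8.86 to 9.33 in DN mice, with overlapping ranges, and differed by −0.14 (SE 0.19) between rTg4510 and DN mice, where 1427610_at differed by −0.65 and 1435494_s_at by 0.033, and by 0.05 (SE 0.20) between rTg4510 and tTA mice. The dim 1427610_at differed by −1.17 between tTA and DN mice (SE 0.46, limma adjusted p = 0.935).

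Calb1 (1417504_at) was 6.42 to 7.69 in rTg4510, 6.93 to 7.78 in tTA and 6.54 to 8.12 in DN mice, 3 ranges that overlapped almost wholly. It differed by −0.33 (SE 0.26) between rTg4510 and DN mice and by −0.09 (SE 0.27) between tTA and DN mice. For 1448738_at the first difference was −0.91 (SE 0.38) with all arrays and −1.34 without the 5 (adjusted p = 0.490).

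The probe sets of Slc4a4 differed in direction. Between rTg4510 and DN mice, 1421225_a_at differed by −0.14 (SE 0.34), 1426432_a_at by 0.24 (SE 0.35) and 1452071_at by 0.72 (SE 0.28), with limma adjusted p between 0.967 and 0.985. The 13 astrocyte genes, none of which passed the threshold, averaged 5.79 ± 0.41 in rTg4510, 5.54 ± 0.13 in tTA and 5.29 ± 0.60 in DN mice in the DG, 10 of 13 being higher in rTg4510 than in DN mice by a median of 0.68, against 0.01 over all probe sets. Over the 17 DG arrays the mean of the 13 and Slc4a4 1426432_a_at gave r = 0.38 (permutation p = 0.378 adjusted over 20 relations, Spearman's rho = 0.33), with r = 0.59, −0.67 and 0.71 within rTg4510, tTA and DN mice.

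Over the 13 probe sets, 9 were lower and 4 higher in rTg4510 than in DN mice, with a median of −0.33. At an unadjusted p under 0.05 there were 6 of 13 between rTg4510 and DN mice, where 4.73% of all probe sets reached this, and 0 and 1 for rTg4510 minus tTA and tTA minus DN (5.71% and 5.21%). The 6 were Prox1, the 3 of C1ql3, 1448738_at of Calb1 and 1452071_at of Slc4a4, of which the last was higher and the others lower. Probe sets of 1 gene share their target, so that the 6 stand for 4 genes.

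In the CA fields 5 differences of the 13 probe sets exceeded 1 in size, all with overlapping groups and none past the threshold. C1ql3 1425175_at differed by −1.41 between tTA and DN mice in CA1 (SE 0.88, limma adjusted p = 0.998), where it was 2.36 to 4.19 in tTA and 2.57 to 7.19 in DN mice. In CA3, Dsp 1435493_at differed by −1.19 between rTg4510 and tTA mice (SE 0.92, adjusted p = 0.878) and Slc4a4 1421225_a_at by −1.05 between tTA and DN mice (SE 0.88, adjusted p = 0.906). The other 2 belonged to Slc4a4 1426432_a_at, which was above the array median in all 34 CA arrays. Slc4a4 1426432_a_at in CA3 was 6.11, 5.09, 7.06, 6.97, 5.42 and 4.24 in rTg4510, 5.80, 4.91, 6.79, 5.90 and 5.66 in tTA and 4.70, 5.57, 5.60, 4.05, 3.70 and 4.6 in DN mice. It differed by 1.11 between rTg4510 and DN mice (SE 0.48, limma adjusted p = 0.984) and by 1.11 between tTA and DN mice (SE 0.50, adjusted p = 0.809), with overlapping groups. Without the 5 arrays, Calb1 1417504_at in CA3 was 2.30 to 3.84 in rTg4510 and 1.65 to 1.96 in DN mice, a separation seen for 0.194% of all probe sets, with a difference of 1.03 (SE 0.39) that did not pass the threshold.

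The step between the DG and the mean of CA1 and CA3 of the same mouse was compared between genotypes to ask whether the contrast of granular and pyramidal layers differed. For Prox1 the step differed by −1.15 between rTg4510 and DN mice (SE 0.34), with a limma adjusted p of 0.893. For the brightest probe sets of the other genes the differences between rTg4510 and DN mice were −0.62 (SE 0.62) for C1ql3, −0.49 (SE 0.73) for Calb1, 0.26 (SE 0.60) for Dsp and −0.40 (SE 0.46) for Slc4a4 1426432_a_at, each about as large as its standard error or smaller. Of the dimmer probe sets, Calb1 1448738_at differed by −0.78 (SE 0.40) and C1ql3 1425176_at by −1.03 (SE 0.60), each with an adjusted p of 0.893. Without the 5 arrays the step differed by −1.14 (SE 0.66) for C1ql3 and −0.99 (SE 0.78) for Calb1, and that of Prox1 by −1.18 (SE 0.41, adjusted p = 0.804), so that none passed.

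Within the DG the genes varied among themselves in ways that their shared subfield pattern did not show. Over the 17 DG arrays, 3 of the 10 pairs of genes, each by its brightest probe set, passed the threshold by Pearson's r. This used 100000 permutations and adjustment over the 10 pairs. Calb1 and Slc4a4 1426432_a_at ran against each other (r = −0.71, permutation p = 0.0012, adjusted p = 0.0122, Spearman's rho = −0.70, adjusted p = 0.0126). The relation had the same sign within rTg4510 (r = −0.84), tTA (−0.63) and DN mice (−0.85). Without the 2 arrays farthest from the median of the first gene, r was −0.69 and the adjusted p 0.0531. The relation is given for this Slc4a4 probe set only. Probe set 1421225_a_at, which followed the granule cell pattern, was nearly unrelated to it here (r = 0.08) and was not tested against Calb1.

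Prox1 and C1ql3 varied together (r = 0.66, adjusted permutation p = 0.0207, rho = 0.69), with r = 0.57, 0.78 and 0.13 within rTg4510, tTA and DN mice. Once genotype means were removed r was 0.50 and did not pass (adjusted p = 0.139), nor did the 0.54 left without the 2 farthest arrays. C1ql3 and Calb1 gave r = 0.63 (adjusted permutation p = 0.023), but rho was 0.45 and did not pass (adjusted p = 0.236), and within tTA mice r was −0.20. No pair with Dsp passed. With Prox1 it gave r = 0.20 over all 17 arrays and 0.51 without the 2 farthest arrays, and −0.14, 0.50 and 0.80 within rTg4510, tTA and DN mice.

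The mean of the 13 astrocyte genes was inversely related to C1ql3 (r = −0.77, permutation p = 0.0072 adjusted over 20 relations), Prox1 (r = −0.71, adjusted p = 0.0145) and Calb1 (r = −0.69, adjusted p = 0.0145) over the 17 DG arrays. Once genotype means were removed, the relation with Prox1 no longer passed (r = −0.61, adjusted p = 0.0594), while those with C1ql3 (r = −0.70) and Calb1 (r = −0.65) passed narrowly. By Spearman's rho, C1ql3 (−0.73) and Prox1 (−0.78) passed and Calb1 (−0.52) did not. Within rTg4510, tTA and DN mice r was −0.93, −0.52 and −0.61 for C1ql3 and −0.81, −0.67 and −0.62 for Prox1, but −0.83, 0.85 and −0.79 for Calb1. Without the 2 arrays farthest from the median of the astrocyte mean only the relation with C1ql3 (r = −0.75) passed. The Gapdh 3′ to 5′ difference showed no relation with any of the 5 genes past the threshold.

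**Figure D4:**
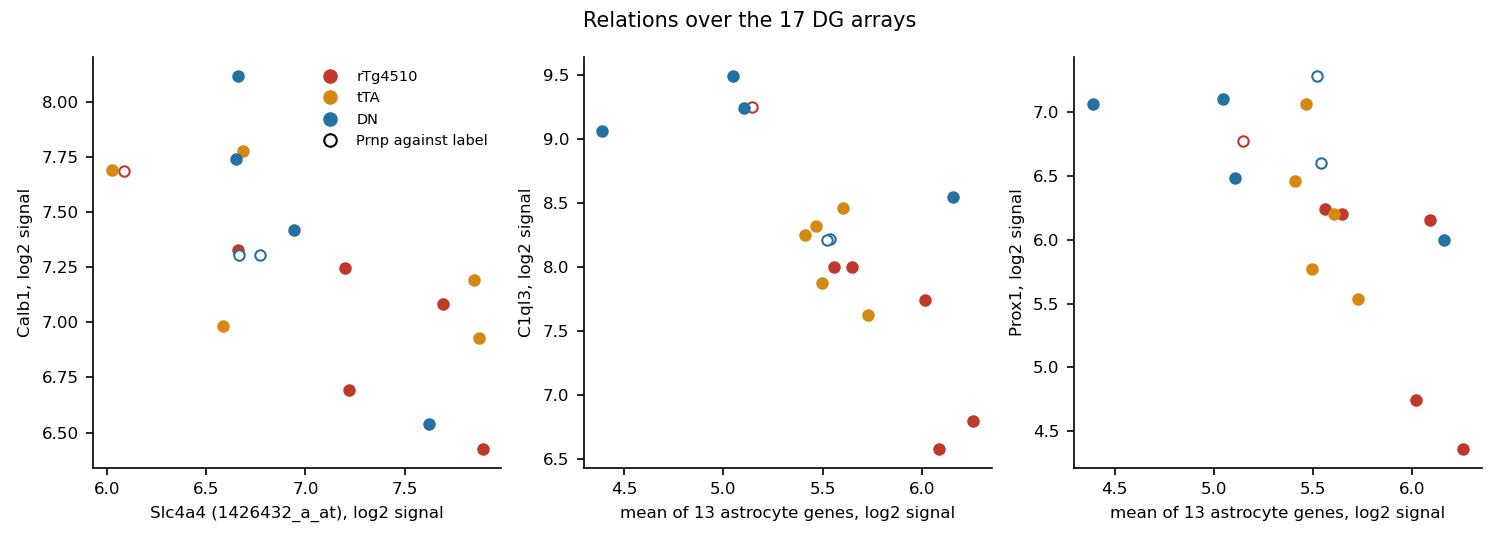
Log2 signals in the 17 DG arrays, for Calb1 against Slc4a4 1426432_a_at (left) and for C1ql3 and Prox1 against the mean of 13 astrocyte genes (middle and right), coloured by genotype, with open points for the 3 arrays whose Prnp went against the label. All 3 relations slope down (r = −0.71, −0.77 and −0.71).

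Other genes with the same subfield pattern were found by their correlation over all 51 arrays, a measure that mostly follows the subfields and is given without a p. The closest to Prox1 were Npnt (r = 0.918), Plekha2 (0.911) and Stxbp6 (0.900), followed by Slc39a6 and Rasgrf2. The closest to Dsp were Capn3 (0.895), Marcks (0.893) and Frmd4b (0.887), then Dact1 and Kcnc4. C1ql3 was followed by Marcksl1 (0.889), Npnt (0.886), Ankrd6, Stxbp6 and Gpc4, and Calb1 by 3 probe sets of Marcksl1 (0.924, 0.909 and 0.901), Lypd1 (0.908) and Gpc4. Like Calb1, Lypd1 had a CA1 mean between those of the DG and CA3 and a wide spread in CA1, averaging 7.72 in the DG, 6.07 ± 2.16 in CA1 and 3.80 in CA3. For Slc4a4 1426432_a_at the closest reached only 0.720 (Tmem47), 0.716 (Tiam1) and 0.705 (Sipa1l2).

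Of 17 further granule cell genes, 16 were higher in the DG than in both CA fields. The exception, Rasgrp1, differed by −1.08 from CA1 and −1.27 from CA3. By more than 1 log2 unit, 9 of the 17 were higher than in both, against 1.29% of all probe sets. Npnt averaged 7.47 in the DG, 4.34 in CA1 and 2.61 in CA3, Tiam1 7.49, 4.93 and 3.94, and Rfx3 6.76, 4.26 and 3.21. The same list averaged 6.16 ± 0.30 in rTg4510, 6.19 ± 0.32 in tTA and 6.32 ± 0.19 in DN mice in the DG, and none of the 17 passed the threshold between genotypes there. Without the 5 arrays, Trpc6, a cation channel, was lower in rTg4510 than in DN mice (−2.10, SE 0.33, limma adjusted p = 0.0319).

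The DG pattern of the 5 genes did not extend to most measured members of their families. Among 17 other desmosome and plakin genes, Vim, an intermediate filament, was higher in the DG by more than 1 (2.17 over CA1 and 2.57 over CA3), while the plakophilin Pkp2 was lower (−1.41 and −1.57), and Dsg2 (0.56 and 0.22) and Jup (−0.20 and −0.18) differed little. Of 9 measured genes of C1q-like proteins and their partners, 0 were higher in the DG than in both CA fields. C1ql2, another C1q-like gene, was not among them, since no probe set was assigned to it, so its pattern is unknown here. C1ql1 averaged under the lowest array median (2.91) in all 3 subfields (2.58, 2.50 and 2.70). The kainate receptor subunit Grik2 (5.58, 5.59 in CA3) and its auxiliary subunit Neto1 (8.19, 8.40 in CA3) were close in the DG and CA3.

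Among 17 other calcium buffers and sensors, Hpcal1 (8.12 in the DG, 5.72 in CA1 and 6.27 in CA3) and Calb2 (4.38, 2.16 and 2.70) were higher in the DG by more than 1, and Pvalb was lower (6.74, 8.52 and 7.34). Among 18 genes of bicarbonate and acid transport, only Car12, a carbonic anhydrase, was higher by more than 1 (1.93 and 2.0), and the related transporter Slc4a10 was not (6.84, 6.54 and 7.13). Of 18 genes linked to Prox1 or neuronal differentiation, 8 were higher in the DG than in both CA fields and 0 by more than 1, with differences from CA1 and CA3 of 1.43 and 0.79 for Neurod1, 0.78 and 1.98 for Sox4, and −1.20 and −1.18 for Bcl11a.

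**Figure D5:**
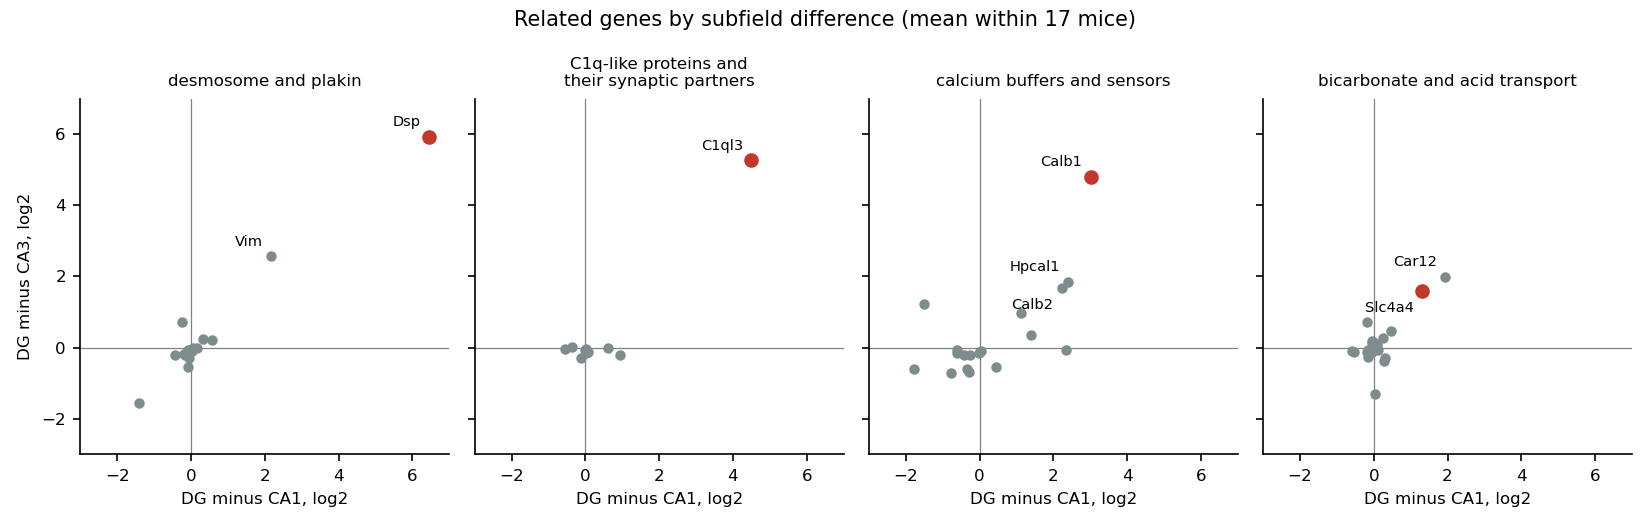
Mean difference within 17 mice of the DG from CA1 (horizontal axis) and from CA3 (vertical axis), in log2 units, for the genes of 4 lists (grey) and the member of each that is among the 5 genes (red, brightest probe set). With all CA1 arrays, Dsp, C1ql3 and Calb1 stand apart in the upper right of their panels, and Slc4a4 lies beside Car12. Calb1 exceeded CA1 by only 1.22 in the 9 mice whose CA1 array had high Wfs1. The other genes of the lists are given with all CA1 arrays only, so whether Calb1 stands apart in those mice was not tested.

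By genotype in the DG, none of the genes in these 4 lists or in the list of Prox1 partners passed the threshold with all arrays. The smallest unadjusted p between rTg4510 and DN mice belonged to Dsg2 (−0.85), Grik3 (−0.35), Hpcal1 (0.52), Car12 (−1.45) and Cdkn1a (1.21), each with a limma adjusted p of 0.967. Without the 5 arrays Hpcal1 was higher both in rTg4510 (0.98, adjusted p = 0.0335) and in tTA mice (1.04, adjusted p = 0.0229) than in DN mice.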

How the data were processed

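The authors deposited 1 table of RMA signals per array, which are log2 values summarized per probe set after background correction and normalization between arrays. The methods describe anti-log values, but the deposited signals range as log2 values do and were used as such. The RMA version and the set of arrays normalized together are not given in the sources used here. Before hybridization the RNA had gone through whole-transcriptome amplification (Ovation Pico WTA System) and biotin labelling (Encore Biotin Module). The arrays were assigned to subfield, genotype and mouse from their titles, and 0 columns belonged to other samples.

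Of 22716 probe sets, 90 controls were left out. The platform annotation gave 1 symbol to 18003 probe sets, several to 287 and none to 4336. Prnp has no symbol there and was named through the study's supplementary tables. Signals were not filtered, and gene lists used the brightest probe set of each gene. Arrays give no read depth, and the number of mice limits the precision.

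For each subfield, 1 limma fit (3.58.1, under R 4.3.3) held the 3 genotypes, and p-values were adjusted by Benjamini-Hochberg over the 22626 probe sets, with a threshold of 0.05. The step was fitted on 1 difference per mouse. Correlations used 100000 two-sided permutations in numpy 2.4.6, under Python 3.11.15, and figures were drawn with matplotlib 3.10.9. Limma and Fisher's LSD were tested on simulated data.

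The genes named are all probe sets of the 5 genes, the 5 closest probe sets to each over 51 arrays, list genes past the threshold or with the smallest p, family members and defining markers. The 5 genes and the 18 lists were chosen with earlier results of these data known. Alternatives were Fisher's LSD, which the methods name, with signals on either scale, array weights, a variance trend over intensity, quantile normalization, centring, leaving out probe sets under the 40th percentile, fits of 2 genotypes only, the mouse as a random replicate block, leaving out each mouse, and leaving out 5 arrays or, with the remaining 2 of DN mouse 5, 7. Leaving out 8 CA1 arrays was chosen after seeing the data.

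The 3 arrays of a mouse share its number, which the labels give. Once group means were removed, arrays of the same mouse correlated at a mean r of 0.0492 across probe sets and arrays of different mice at −0.0210, and 11 of 51 pairs of arrays of the same mouse exceeded 0.1.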

Additional observations from a re-analysis of the deposited data

Results flagged for a closer look

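Of 117 groups of 5 or 6 arrays (13 probe sets in 9 groups), 11 held an array whose gap to its neighbour exceeded Dixon's critical value, where chance gives about 1 in 20. Of these, 7 came from 3 arrays.

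The CA3 array labelled DN mouse 4, 1 of those whose Prnp went against the label, was the highest of its group for Calb1 1417504_at (3.40, against 1.65 to 1.96 in the others), C1ql3 1451620_at (3.34, against 1.37 to 1.83) and Dsp 1427610_at (2.03, against 1.46 to 1.62). The CA1 array of DN mouse 6 was highest for Prox1 (2.55, against 1.33 to 1.51), Dsp 1435493_at (5.10, against 1.76 to 2.65) and Dsp 1435494_s_at (3.33, against 1.55 to 2.13). In the CA1 array of tTA mouse 4, Prox1 was 3.54, against 1.22 to 1.69.

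The remaining 4 were single probe sets. C1ql3 1451620_at was 2.07 in CA3 of tTA mouse 1, against 1.57 to 1.65, and Calb1 1448738_at was 3.89 in the DG of tTA mouse 4, against 2.17 to 2.56. Slc4a4 1426432_a_at was 7.62 in the DG of DN mouse 2, against 6.65 to 6.94. Slc4a4 1421225_a_at was the lowest of its group in CA1 of DN mouse 1 (1.17, against 3.57 to 4.19).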

How the results depend on the processing

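The counts of probe sets past the threshold stayed at 0 under every alternative tried except 1 comparison: between rTg4510 and DN mice in the DG, 1 probe set of the 13 (C1ql3 1451620_at, adjusted p = 0.0411) passed without 5 and without 7 arrays. With the mouse as a replicate block in a fit of all arrays (consensus correlation 0.0454), 0 of the 13 passed, as they did without the replicate block for the step, so that the block changed no call. Leaving out the 8 CA1 arrays also gave 0. Fisher's LSD on linear signals was not run for the step, which has no linear form. In the related lists, where 0 passed with all arrays, leaving out the 5 arrays gave 2 genes for rTg4510 minus DN and 1 for tTA minus DN in the DG, and 1 each for rTg4510 minus DN and rTg4510 minus tTA in CA1.

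Differences near 0 changed sign. Slc4a4 1421225_a_at between rTg4510 and DN mice in the DG was 0.020 without 5 or 7 arrays and −0.31 to 0.12 when each mouse was left out in turn. Dsp 1435493_at between rTg4510 and tTA mice in the DG was −0.052 with array weights and −0.069 to 0.17 when mice were left out. Leaving out mice also gave −0.12 to 0.34 and −0.10 to 0.36 for Slc4a4 1426432_a_at (rTg4510 minus tTA and tTA minus DN, DG), −0.26 to 0.052 for Calb1 1417504_at (tTA minus DN, DG) and −0.064 to 0.60 for the step of Dsp 1435493_at (rTg4510 minus DN).

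With the mean over all probe sets of a gene, Dsp exceeded CA1 by 4.56 and Calb1 exceeded CA3 by 3.01, since dim probe sets enter. Of the 10 gene pairs in the DG, 1 passed with genotype means removed and 0 without the 2 farthest arrays, and 1 of 20 relations with lists or quality passed without the 2 farthest. Signals near the lowest values, as of Prox1 in CA1 and CA3, may be below detection, so that folds against them depend on background correction, which was not varied.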

Other observations

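Probe set 1453578_at, which the annotation assigns to both C1ql3 and Pter, exceeded CA1 by 4.59 (SE 0.53) and CA3 by 5.57 (SE 0.40) in the DG within the 17 mice. These are the fourth and second largest differences of any probe set, and it was set apart because its signal cannot be given to 1 gene.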
